A study of Arabidopsis thaliana with 20 samples.

Results

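Peaks with a summit inside an intron and away from transcription start sites (TSSs) made up 3856 of the 200635 nuclear peaks in 12 ChIP-seq lists. A peak was counted as intronic when its summit lay in an intron of a protein-coding gene and in no exon of any gene, more than 500 bp from every annotated TSS and more than 200 bp from every annotated gene end (TAIR10.1 annotation). The rule used positions only and no measured height.

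The lists came from 14-day-old Arabidopsis thaliana seedlings that expressed a GFP-tagged protein from its native promoter, precipitated with an antibody against GFP. Libraries were made in 6 groups of 2: BCL7A brm-1 (BCL7A-GFP in a bcl7a brm-1 background), BCL7A (BCL7A-GFP in bcl7a), BCL7B brm-1 (BCL7B-GFP in bcl7b brm-1), BCL7B (BCL7B-GFP in bcl7b), BRM bcl7ab (BRM-GFP in brm-1 bcl7a bcl7b) and BRM (BRM-GFP in brm-1). Each protein was thus tagged in a mutant of its own gene, so no group was wild type, and in whole seedlings fewer cells with the protein on a site and less of it per cell cannot be told apart. The lists held 14770 to 18870 nuclear peaks each and no read totals, and the depth of the libraries was not computed here. The comparisons asked where BCL7A and BCL7B were found without BRM, and where BRM was found without BCL7A and BCL7B.

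SWI/SNF complexes use the energy of ATP to move or evict nucleosomes. BRM is one of their ATPases in Arabidopsis, and BCL7A and BCL7B are accessory subunits. Introns of plant genes can hold regulatory DNA as well as spliced sequence, and a well-known example is the large intron of class I KNOX homeobox genes, which keep shoot meristem cells undifferentiated.

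The windows below show the DNA under 5 summits that the results return to: GRF3 and NHX2, with the largest negative changes in rank in the mutants, KNAT6, a class I KNOX gene, and KOR2 and GATA1, which carried high peaks in all 12 lists. Each window spans 300 bases around the summit in TAIR10 and is written 5′ to 3′ on the strand of its gene. GRF3 was read from the minus strand of chr2:15270934-15271233, NHX2 from the minus strand of chr3:1395886-1396185, KNAT6 from the minus strand of chr1:8298227-8298526, KOR2 from the minus strand of chr1:24394079-24394378, and GATA1 from the plus strand of chr3:8686224-8686523. Capitals mark every match, on either strand, to one of 4 short motifs, namely the repeat GAGAGA, the telo-box letters AACCCTA, the G-box core CACGTG and the promoter element TGGGCC. The last 49 bases of the NHX2 window are exon and the other 4 windows are intron throughout.
GRF3: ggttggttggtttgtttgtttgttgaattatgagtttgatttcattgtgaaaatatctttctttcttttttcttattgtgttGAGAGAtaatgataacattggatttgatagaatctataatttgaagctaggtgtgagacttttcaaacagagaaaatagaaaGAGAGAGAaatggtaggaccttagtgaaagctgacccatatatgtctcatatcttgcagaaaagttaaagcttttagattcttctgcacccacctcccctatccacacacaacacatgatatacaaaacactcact
NHX2: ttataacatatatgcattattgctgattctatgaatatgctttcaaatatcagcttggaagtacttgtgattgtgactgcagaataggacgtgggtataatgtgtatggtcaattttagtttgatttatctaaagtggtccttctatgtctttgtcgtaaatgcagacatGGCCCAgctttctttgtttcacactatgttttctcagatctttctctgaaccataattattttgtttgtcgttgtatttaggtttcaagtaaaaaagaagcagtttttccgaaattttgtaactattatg
KNAT6: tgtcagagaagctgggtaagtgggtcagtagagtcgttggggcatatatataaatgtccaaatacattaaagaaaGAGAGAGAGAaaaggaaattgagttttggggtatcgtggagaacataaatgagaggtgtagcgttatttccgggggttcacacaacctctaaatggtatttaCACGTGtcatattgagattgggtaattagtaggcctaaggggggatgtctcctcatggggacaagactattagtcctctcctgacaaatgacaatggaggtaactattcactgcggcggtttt
KOR2: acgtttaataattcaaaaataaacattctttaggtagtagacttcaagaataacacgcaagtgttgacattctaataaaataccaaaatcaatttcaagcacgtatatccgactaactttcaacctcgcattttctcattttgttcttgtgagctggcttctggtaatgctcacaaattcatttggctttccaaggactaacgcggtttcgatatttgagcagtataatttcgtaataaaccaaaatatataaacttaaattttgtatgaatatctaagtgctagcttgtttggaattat
GATA1: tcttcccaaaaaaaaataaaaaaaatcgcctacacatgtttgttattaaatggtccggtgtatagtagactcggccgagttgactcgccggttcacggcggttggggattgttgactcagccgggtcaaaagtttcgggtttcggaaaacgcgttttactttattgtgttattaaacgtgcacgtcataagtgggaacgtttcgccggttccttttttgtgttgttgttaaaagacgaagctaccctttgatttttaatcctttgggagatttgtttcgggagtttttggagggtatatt
The GRF3 window held 3 matches to GAGAGA, some of them overlapping, the KNAT6 window held 3 to GAGAGA and 1 to CACGTG, and the NHX2 window held 1 to TGGGCC, read on the opposite strand as GGCCCA. The KOR2 and GATA1 windows held none of the 4.

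Summits joined within 200 bp of each other across the 12 lists gave 1072 intronic loci in 921 genes, which is 4.87% of the 18896 protein-coding genes that have any position meeting the rule. Of these genes, 136 held more than 1 locus and the most in any gene was 4. A member peak was found in a single library at 446 loci (41.6%), in at least 4 libraries at 405 and in all 12 at 34. At 198 loci every list had some peak, intronic or not.

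The loci lay in first introns and in long introns more often than positions meeting the rule did, though neither class held most of them. The first intron of the gene held 449 of the 1072 loci (41.9%), against 17.8% of 143794 positions taken every 100 bp along the sequence that meets the rule. The host intron had a median length of 533.5 bp at the loci and 176 bp at those positions, and introns of 1 kb or longer held 22.5% of the loci and 5.47% of the positions. Introns within the 5′ untranslated part of the transcript held 60 loci (5.60% against 2.40% of positions), introns between coding exons held 976 and introns of the 3′ untranslated part held 36. The summits stood a median of 1330 bp from the start of their gene, against 1663 bp for the positions. As a percentage of gene length the medians were closer, at 46.2% and 50.8%. These shares are descriptions with no test.

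The lists of both BCL7 proteins held fewer intronic peaks in brm-1 than with BRM, and their ratios lay under those of all nuclear peaks, a difference between ratios that was not tested. BCL7A brm-1 libraries held 366 and 344 intronic peaks, against 420 and 403 in BCL7A libraries, a ratio of means of 0.863 where all nuclear peaks gave 1.04. BCL7B brm-1 libraries held 200 and 234, against 391 and 402 in BCL7B libraries, a ratio of 0.547 where all nuclear peaks gave 0.860. With only peaks of 3-fold enrichment or more the intronic ratio was 0.314, and that of all nuclear peaks was not computed. The median fold of the other nuclear peaks was also lower in BCL7B brm-1, at 2.80 and 2.78, against 3.39 and 3.39 in BCL7B. BRM bcl7ab libraries held 276 and 262, against 286 and 272 in BRM libraries, a ratio of 0.964 where all nuclear peaks gave 0.959. In both brm-1 comparisons every mutant library lay below every library with BRM, whereas the BRM bcl7ab and BRM ranges overlapped. The exact two-sided permutation test gave p = 0.333 for BCL7A, 0.333 for BCL7B and 0.667 for BRM, and 2 libraries against 2 cannot go below 0.333. The BCL7B brm-1 lists were also shorter, with 14922 and 15300 nuclear peaks against 17429 and 17711 in BCL7B, and the part of list length in the result was not tested.

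Exonic and TSS peaks gave other ratios. Peaks with a summit in an exon under the same distance limits gave ratios of 1.03 for BCL7A brm-1 over BCL7A, 0.891 for BCL7B brm-1 over BCL7B and 0.821 for BRM bcl7ab over BRM, and peaks near a TSS gave 1.02, 0.887 and 0.954. As a share of nuclear peaks, intronic peaks took 1.94% and 1.82% in BCL7A brm-1 against 2.30% and 2.23% in BCL7A, and 1.34% and 1.53% in BCL7B brm-1 against 2.24% and 2.27% in BCL7B. The share was 1.87% and 1.72% in BRM bcl7ab against 1.83% and 1.74% in BRM. In every library the share was far under the 12.1% of the nuclear genome that meets the rule.

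**Figure D1:**
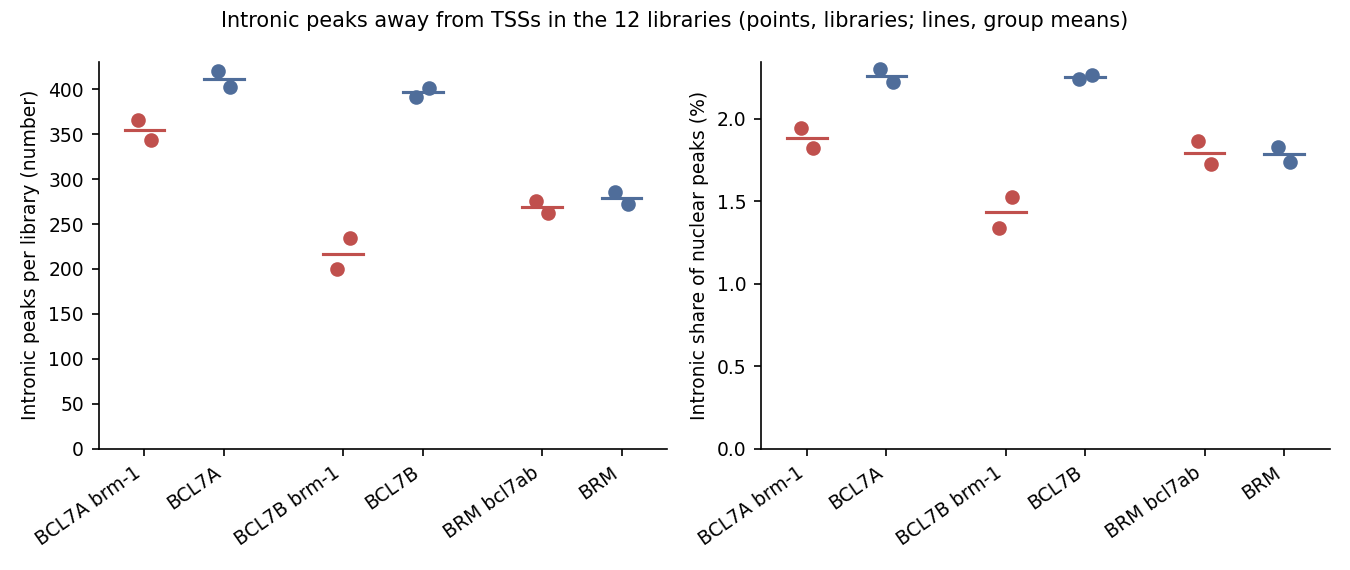
Number of intronic peaks (left) and their percentage of nuclear peaks (right) in each of the 12 libraries, with points for libraries and lines for the means of 2. The BCL7B brm-1 libraries (200 and 234 peaks) stand farthest below their counterparts (391 and 402), while the BRM bcl7ab and BRM libraries overlap.

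The share of BRM peaks that were intronic averaged 1.79% ± 0.0658 (SD, n = 2), against 2.26% ± 0.0526 for BCL7A and 2.26% ± 0.0187 for BCL7B (SD, n = 2 each). The difference was -0.478 percentage points from BCL7A and -0.471 from BCL7B, and neither BRM library reached a BCL7 library (exact permutation p = 0.333 each, the smallest possible). BCL7A and BCL7B differed by 0.0071 percentage points (exact permutation p = 1). The BRM lists went down to less significant peaks, their lowest -log10 q being 0.475 to 0.577 against 2.03 to 2.25 in the other lists. The paper states a single q limit for its ChIP-seq peaks, and the lowest BRM peaks, intronic ones included, do not meet it. Median peak width was 799 to 841 bp in the BRM lists against 519 to 542 bp. With all lists held to a -log10 q of 5 or more, the difference was -0.666 from BCL7A and -0.665 from BCL7B, and with a 3-fold enrichment or more it was -0.213 and -0.380. The other differences between the lists, such as peak width, and the protein cannot be told apart.

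Intronic peaks had a lower median height than all other nuclear peaks of their own list, which in the BCL7 lists was also so for exonic peaks of gene bodies. Height was compared as the percentile rank of the fold enrichment over background within each list, where 100 is the highest peak. The median intronic peak stood at a rank of 36.4 to 46.4, against 49.5 to 50.5 for the other nuclear peaks. The difference averaged -9.18 percentile points over the 12 libraries (range -14.1 to -3.07) and was negative in 12 of 12 (exact two-sided sign-flip permutation p = 0.000488, the smallest possible, with replicates and shared loci counted as separate libraries). Exonic peaks of gene bodies had median ranks of 36.4 to 43.1 in the 8 BCL7A and BCL7B lists, where intronic peaks had 36.4 to 44.6, so the lower rank there was not particular to introns. In the 4 BRM lists exonic peaks had 56.1 to 62.8 and intronic peaks 39.6 to 46.4. The top decile of a list held 4.22% to 6.39% of the intronic peaks in the BCL7 lists, 13.4% and 13.7% in BRM bcl7ab and 7.69% and 8.09% in BRM, so in BRM bcl7ab the highest peaks were not under-represented although the median was lower. The difference shrank to -2.02 (exact sign-flip permutation p = 0.339) when only peaks with at least a 3-fold enrichment were kept.

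The peaks just inside the 500 bp limit can be set beside those just outside it. Within 50 bp of the limit, 4 to 26 peaks per library fell inside, with median ranks from 16.2 to 72.8, and 4 to 24 fell outside, with median ranks from 18.8 to 66.6.

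Fate in the mutants was followed by region, meaning overlapping peaks of both replicates of a group. A region was retained when it overlapped a region with a peak in both mutant libraries and lost when neither mutant library had a peak there. Of 321 intronic BCL7A regions, 240 (74.8%) were retained in BCL7A brm-1, 36 had a peak in 1 mutant library and 45 (14.0%) were lost. Of 315 intronic BCL7B regions, 164 (52.1%) were retained in BCL7B brm-1, 43 had a peak in 1 mutant library and 108 (34.3%) were lost. Of 147 intronic BRM regions, 117 (79.6%) were retained in BRM bcl7ab, 18 had a peak in 1 mutant library and 12 (8.16%) were lost. The lost share depended on what counts as shared. With 50% overlap of both intervals it was 21.8% for BCL7A, 45.7% for BCL7B and 20.4% for BRM, with summits within 200 bp 19.0%, 42.2% and 23.1%, and with a member peak in either replicate 20.6%, 40.5% and 17.9%. With a single library in place of a pair the lost share was higher in each comparison, at 17.8% to 21.8% for BCL7A, 39.1% to 42.5% for BCL7B and 10.2% to 18.4% for BRM, since a peak then had to be missing from fewer lists or present in fewer to count.

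Over all nuclear regions the lost share was 3.62% for BCL7A, 13.1% for BCL7B and 4.33% for BRM, so the intronic share was above this background in each comparison. Regions that were not intronic were retained at 91.7% for BCL7A, 76.6% for BCL7B and 87.6% for BRM. Single pairs of a library and its mutant counterpart gave overlapped shares of intronic peaks from 72.4% to 77.7% for BCL7A, 51.4% to 56.0% for BCL7B and 73.8% to 80.9% for BRM. The mutant peaks at retained regions were still intronic in both libraries at 205 of 240 BCL7A, 129 of 164 BCL7B and 79 of 117 BRM regions.

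New intronic regions were few. In BCL7A brm-1, 9 of 267 intronic regions (3.37%) had no peak in either BCL7A library, against 5.07% over all regions of that mutant. In BCL7B brm-1 there were 3 of 151 (1.99%, against 3.21%), and in BRM bcl7ab 3 of 142 (2.11%, against 2.82%).

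Low regions were lost more often than high ones, and for BCL7A and BCL7B the lost share of intronic regions was above that of others in every band of 20 rank points. In the lowest band (0 to 20), 21 of 64 intronic BCL7A regions (32.8%) were lost, against 14.6% of other regions, and 32 of 56 intronic BCL7B regions (57.1%) were lost, against 37.4%. In the next band the lost shares were 22.2% against 5.18% for BCL7A and 56.2% against 21.2% for BCL7B. In the highest band (80 to 100), 1 of 48 BCL7A (2.08%) and 5 of 48 BCL7B intronic regions (10.4%) were lost, against 0% and 0.389% of other regions. Among intronic BRM regions, 6 of 16 in the lowest band were lost (37.5% against 20.2%). In the band of 20 to 40, 3 of 38 were lost (7.89% against 7.63%), and in that of 40 to 60, 3 of 33 (9.09% against 1.42%). Above a rank of 60, 0 of 28 and 0 of 32 were lost, against 0.170% and 0.0335% of other regions.

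**Figure D2:**
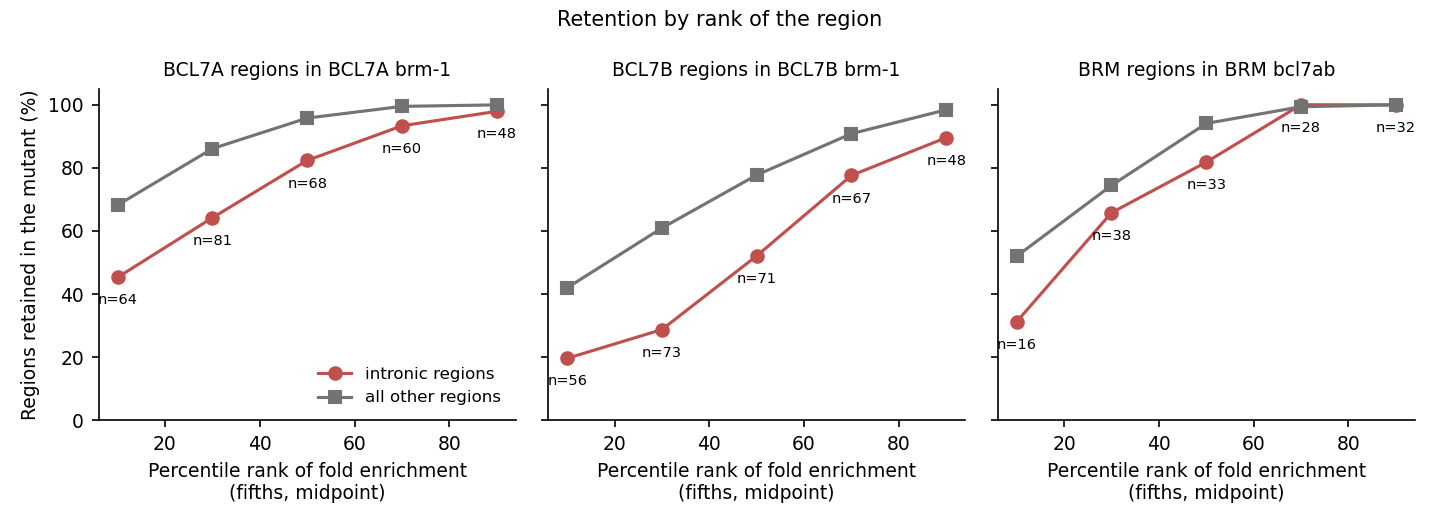
Percentage of regions retained in the mutant (y axis) by band of 20 points of percentile rank (x axis, midpoint), for intronic regions (circles, with their number) and all other regions (squares). The curve of intronic regions lies under the other in every band for BCL7A and BCL7B, from 45.3% against 68.2% and 19.6% against 42.0% in the lowest band, and meets it above a rank of 60 for BRM.

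Held at like rank, intronic peaks were overlapped by a mutant peak less often than other peaks in 6 of 6 libraries. In the 2 BCL7A libraries 74.0% and 76.1% of intronic peaks were overlapped in BCL7A brm-1, against 87.7% and 88.9% of other peaks weighted to the same bands of rank. In the 2 BCL7B libraries the shares were 53.3% and 54.2%, against 74.3% and 73.6%. In the 2 BRM libraries they were 76.2% and 77.6%, against 82.0% and 83.4%. The mean difference was -13.05 percentage points (range -21.0 to -5.74, exact two-sided sign-flip permutation p = 0.03125, the smallest that 6 libraries allow). Replicates share their mutant libraries, so the 6 differences are not independent.

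By protein, the difference at like rank averaged -13.2 points for BCL7A, -20.2 for BCL7B and -5.77 for BRM, and whether the proteins differ in it was not tested. Against exonic peaks of gene bodies, a comparison chosen after the data were seen, it averaged -9.28 points (range -17.4 to -3.06, exact sign-flip permutation p = 0.03125). For BRM the difference did not hold for stronger peaks, with -0.431 and 1.05 points at a -log10 q of 5 or more and 2.36 and 4.65 points at 3-fold enrichment or more, where BCL7A kept -12.9 and -11.6 and BCL7B -14.7 and -12.7 points.

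The same measure was taken between replicates, also chosen after the data were seen. Between the 2 replicates of a group, the share of intronic peaks overlapped minus that of others of like rank averaged -0.268 points in the 6 libraries without a further mutation (range -1.55 to 1.17, exact sign-flip permutation p = 0.5). Over all 12 libraries it averaged -1.42 points and was negative in 9 (range -5.92 to 1.17, exact sign-flip permutation p = 0.0122). It was negative in each mutant library, at -3.64 and -1.01 in BCL7A brm-1, -1.49 and -5.92 in BCL7B brm-1, and -1.11 and -2.22 in BRM bcl7ab. The 2 values of a group come from the same pair of libraries, so the values in these tests are not independent. The next comparison used only the libraries without a further mutation. The difference against the mutant minus the one between replicates averaged -12.8 points and was negative in 6 of 6 libraries (exact sign-flip permutation p = 0.03125), with means of -12.9 for BCL7A, -20.8 for BCL7B and -4.63 for BRM.

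**Figure D3:**
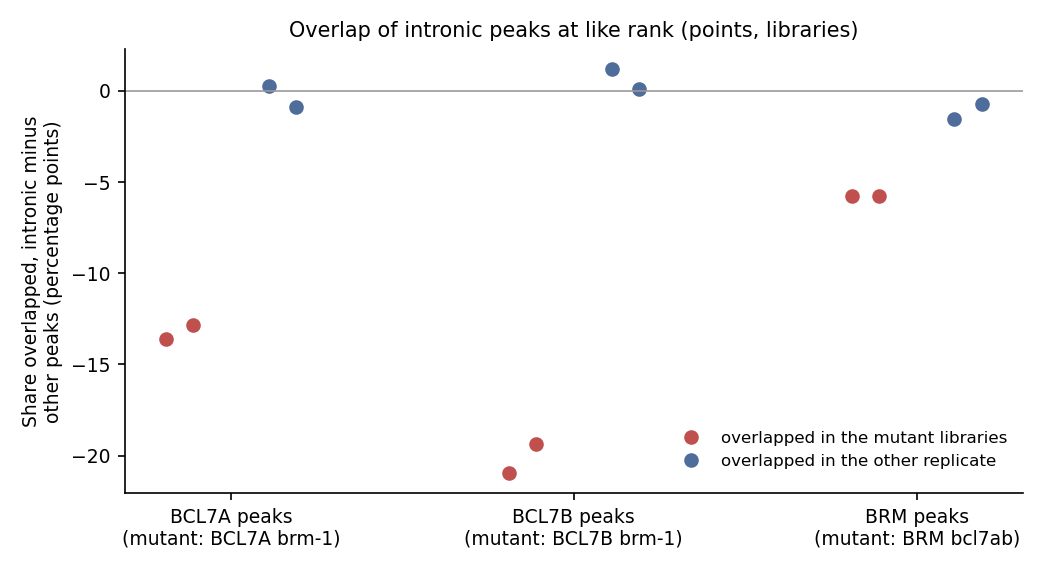
Difference in the share of peaks overlapped between intronic peaks and other peaks of like rank (y axis, percentage points), for overlap in the mutant libraries and in the other replicate; each point is a library. Points for the mutants lie between -21.0 and -5.74, and points for replicates between -1.55 and 1.17. Only libraries without a further mutation are drawn.

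Regions found in all 4 libraries of a comparison were re-ranked among themselves. At intronic regions of BCL7A the median change in BCL7A brm-1 was -4.29 percentile points, against -0.0565 over all regions, and at those of BCL7B the median change in BCL7B brm-1 was -7.76, against 0.340. At those of BRM the median change in BRM bcl7ab was 0.82, against -0.554. A region was counted as lower when both mutant libraries lay under both others. This held for 93 of 239 intronic BCL7A regions (38.9%, against 24.3% over all) and 75 of 163 BCL7B regions (46.0%, against 29.9%), but 25 of 116 BRM regions (21.6%, against 28.6%). Regions counted as higher were 42 for BCL7A (17.6%, against 24.0%), 34 for BCL7B (20.9%, against 31.1%) and 36 for BRM (31.0%, against 24.1%).

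Among regions whose mutant and other values did not overlap, the largest negative change for both BCL7 proteins was at GRF3, a growth-regulating transcription factor that promotes cell proliferation in leaves. Its summit lies in intron 3 of 3, an 809 bp intron, in the window printed above. GRF3 ranked at 43.4 and 42.6 in BCL7A brm-1, against 81.9 and 94.0 in BCL7A. GRF3 ranked at 61.8 and 17.0 in BCL7B brm-1, against 94.4 and 95.1 in BCL7B. The mutant values were below the others for both proteins, with changes among shared regions of -54.3 and -60.9 percentile points, while the BRM peak ranked at 84.1 and 83.8 in BRM bcl7ab and at 78.6 and 74.1 in BRM.

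Further large negative changes were at XTH4, AT4G22770, HB53 and ASL9. XTH4, an enzyme that cuts and rejoins wall xyloglucan, ranked at 23.1 and 26.5 in BCL7A brm-1, against 68.3 and 69.4 in BCL7A. AT4G22770, an AT-hook DNA-binding protein, had a change of -41.7 points in BCL7A brm-1. HB53, a homeodomain-leucine zipper factor, ranked at 59.8 and 19.2 in BCL7B brm-1, against 92.1 and 93.2 in BCL7B, and at 74.99 and 91.1 in BCL7A brm-1, against 83.4 and 94.9 in BCL7A, where the values overlap. ASL9, a LOB-domain protein, ranked at 37.0 and 8.57 in BCL7B brm-1, against 72.5 and 77.9 in BCL7B. In these pairs the mutant libraries were not always alike, the BCL7B brm-1 replicates of HB53 and GRF3 lying far apart.

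Other intronic regions ranked higher in brm-1. AST56, a sulfate transporter, ranked at 91.9 and 89.6 in BCL7A brm-1, against 16.9 and 20.3 in BCL7A, a change of 78.0 points among shared regions. With BCL7B no such rise was seen. AST56 ranked at 24.1 in BCL7B brm-1 replicate 2 and 46.9 in BCL7B replicate 1, with no peak in the other BCL7B lists. NAC074, a NAC transcription factor, ranked at 83.0 and 79.9 in BCL7A brm-1, against 34.3 and 37.2 in BCL7A, and at 68.6 and 86.1 in BCL7B brm-1, against 50.9 and 54.9 in BCL7B. AT2G29995, encoding a PSY3-like protein, changed by 43.1 points in BCL7A brm-1. In BCL7B brm-1 the change was 48.7 points at AT1G53900, annotated as a translation initiation factor, and 45.6 points at AT4G20460.

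For BRM the largest negative change was at NHX2, a vacuolar cation/proton antiporter, in intron 2 of 13 and in the window printed above. NHX2 ranked at 22.7 and 33.7 in BRM bcl7ab, against 71.1 and 71.9 in BRM, a change of -47.9 points. The same intron held a BCL7B region that was lost in BCL7B brm-1, where BCL7B had ranks of 80.6 and 80.8, and a BCL7A peak that ranked at 46.5 and 21.9 in BCL7A brm-1, against 65.2 and 60.1 in BCL7A. MYB111, a regulator of flavonol synthesis, changed by -28.2 points in BRM bcl7ab and AT4G03380 by -23.5. The largest positive changes were 56.5 points at AT2G26730, a leucine-rich repeat kinase, 38.7 at AT1G49225 and 34.4 at AT4G02940. At AT2G26730 the BRM bcl7ab libraries ranked it at 66.6 and 99.5, against 28.5 and 44.6 in BRM.

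The highest of the lost BCL7A regions was at GPAT8, an acyltransferase of cutin synthesis (chr4:175511-176033, intron 2 of 3). It had a fold enrichment of 5.07 and 3.75 and ranks of 91.2 and 69.6 in BCL7A, and no peak in BCL7A brm-1. CKL2, a casein kinase 1-like protein, had ranks of 58.8 and 66.5, AT5G20950, a glycosyl hydrolase, 68.7 and 53.8, BR6OX1, an oxidase of brassinosteroid synthesis, 48.6 and 45.1, and SS2, annotated as a strictosidine synthase, 43.9 and 42.5. At GPAT8, CKL2, AT5G20950 and BR6OX1 neither BCL7B brm-1 library had a peak, while both BCL7B libraries did. At SS2 a BCL7B peak remained in BCL7B brm-1 replicate 1 (2.91), against 49.6 and 33.8 in BCL7B. A BRM peak was present in both BRM libraries at SS2 (97.6 and 96.9), GPAT8 (57.1 and 53.6) and CKL2 (86.5 and 77.7). It was present only in BRM replicate 2 at AT5G20950 (28.6) and in neither at BR6OX1.

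The highest of the lost BCL7B regions were at SKS6, related to multicopper oxidases of the cell wall (ranks of 80.3 and 88.2 in BCL7B), AT5G52882, a nucleoside triphosphate hydrolase (87.0 and 81.2), AT1G54820, a protein kinase (83.7 and 83.1), AT5G07800, a flavin-binding monooxygenase (88.4 and 77.7), and NHX2. BCL7A peaks were present in both BCL7A brm-1 libraries at 4 of these 5, namely SKS6 (67.3 and 41.9), AT1G54820 (48.9 and 47.0), AT5G07800 (85.9 and 87.7) and NHX2 (46.5 and 21.9), and in 1 of them at AT5G52882 (8.23). The lost BRM regions were of middle rank or lower. AIL6, an AP2-type factor of meristems, had 41.5 and 57.3 in BRM, XTH7 had 48.6 and 40.9, and MEA, a Polycomb methyltransferase of the endosperm, had 28.5 and 55.9, with AT1G74290 and AT5G13250 below them.

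**Figure D4:**
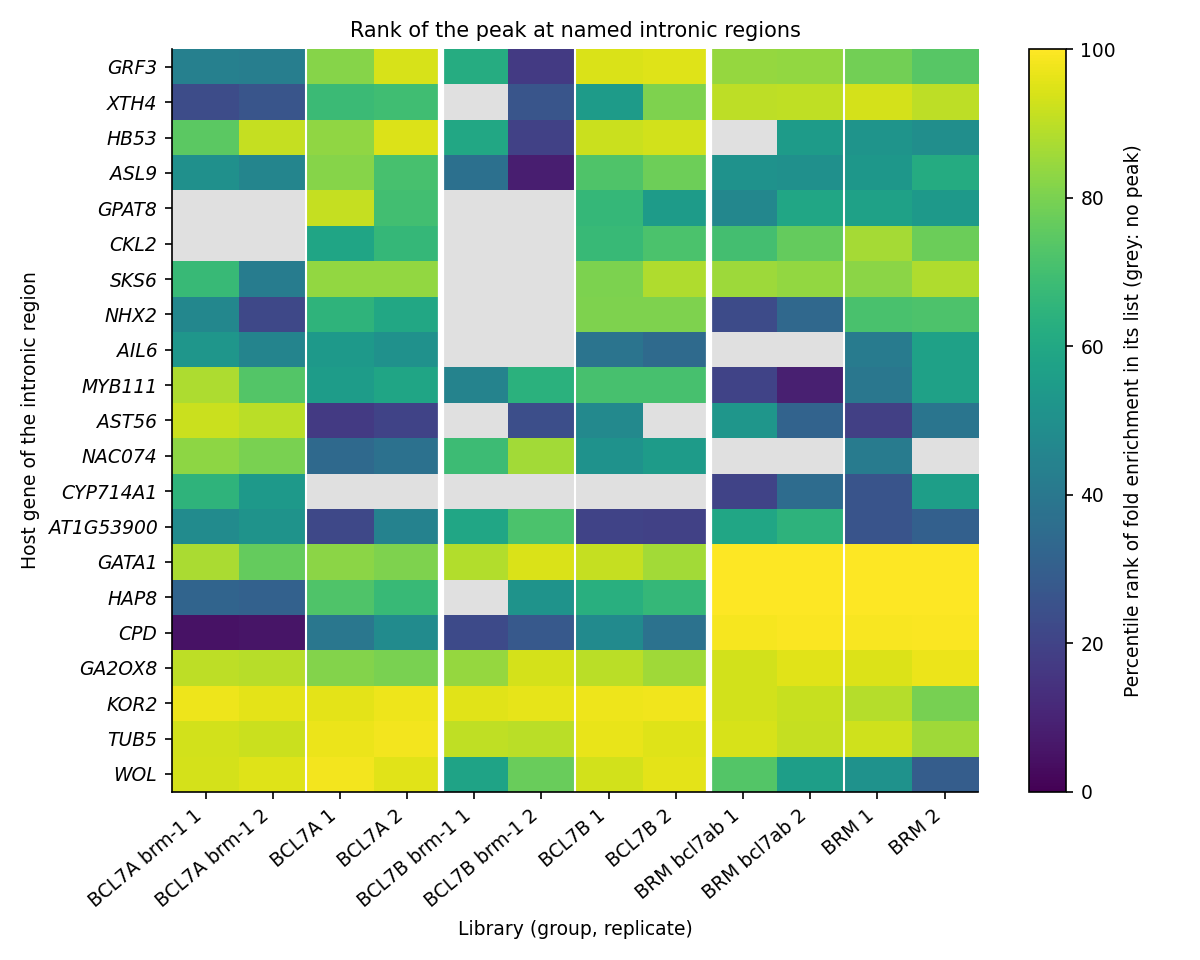
Percentile rank of the peak (colour, with grey for no peak) at 21 intronic regions (rows, by host gene) in the 12 libraries (columns, mutant left of its counterpart). GRF3, XTH4 and ASL9 are darker in the brm-1 columns, GPAT8 and CKL2 are grey in all 4 brm-1 columns, and KOR2 and TUB5 are bright throughout.

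The new regions were mostly low. In BCL7A brm-1 the highest was at CYP714A1, a cytochrome P450 that inactivates gibberellins, with ranks of 65.0 and 54.0. BETA-VPE, a vacuolar protease, had 33.1 and 40.02, FUS6, a subunit of the COP9 signalosome, 39.98 and 16.2, and AAP6, an amino acid permease, 33.1 and 20.5. In BCL7B brm-1, AT4G20670 had 44.6 and 52.7, while TPPI and AT1G68390 had no rank above 17.0. In BRM bcl7ab, AT2G16990 had 12.5 and 33.7, and AT5G22090 and AT5G45960 had no rank above 10.7.

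The highest intronic regions were retained. For BCL7A they were at AT3G03350, TUB5, WOL, KOR2, AT1G40104 and AT5G41460, and for BCL7B at KOR2, SIP1, AT5G12440, TUB5, AT4G31180 and AT5G41460. KOR2, a relative of the KORRIGAN cellulase of wall synthesis, had folds of 6.02 and 5.63 in BCL7A brm-1, against 5.84 and 6.45 in BCL7A, of 4.89 and 5.04 in BCL7B brm-1, against 7.34 and 7.59 in BCL7B, and of 5.34 and 4.98 in BRM bcl7ab, against 4.43 and 3.47 in BRM. By rank KOR2 stood at 95.4 and 96.4 in BCL7B brm-1, against 97.4 and 97.8 in BCL7B. TUB5 encodes a beta-tubulin, and WOL is a cytokinin receptor whose peak lies in an intron of the 5′ untranslated part. WOL ranked at 57.9 and 77.2 in BCL7B brm-1, against 93.0 and 96.0 in BCL7B.

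For BRM the highest were at GATA1, HAP8, AT2G40095, CPD, GA2OX8 and PMR6. GATA1, a zinc finger transcription factor, had folds of 16.3 and 15.9 in BRM bcl7ab, against 13.3 and 16.0 in BRM, and HAP8 had 11.0 and 10.6, against 10.7 and 11.0. At both genes the values of the groups overlapped. CPD, a cytochrome P450 of brassinosteroid synthesis, had folds of 7.79 and 8.74 in BRM bcl7ab, against 8.31 and 9.24 in BRM, which also overlap. GA2OX8 inactivates gibberellins and PMR6 is a pectate lyase-like protein. The GATA1 region of BRM spanned chr3:8685243-8688701, so a summit in an intron does not confine the peak to it. Of the loci with a member peak in all 12 lists, those of highest mean rank were at KOR2, TUB5, AT1G75710, GATA1 and AT5G04310.

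Of 4 class I KNOX genes, KNAT6 and KNAT2 held intronic peaks, both in intron 3 of 4. STM and BP, which also have positions meeting the rule, held none. That is 50% of the list, against 4.87% of all eligible genes, and 4 genes are too few for a difference to be read. KNAT6 has an intron of 3676 bp with 2 loci. At the locus printed above KNAT6 had ranks of 82.2 and 83.1 in BCL7A brm-1, against 72.5 and 75.4 in BCL7A, and of 44.6 and 78.6 in BCL7B brm-1, against 68.7 and 66.9 in BCL7B. KNAT6 had ranks of 37.1 and 21.5 in BRM bcl7ab, against 39.6 and 16.8 in BRM, so it had a peak in all 12 lists and its BCL7B and BRM values overlapped between groups. At the second KNAT6 locus the ranks were 16.6 and 83.1 in BCL7A brm-1, the second of them a peak shared with the first locus, against 6.34 and 9.79 in BCL7A. That KNAT6 locus had no peak in BCL7B brm-1, against ranks of 18.1 and 12.2 in BCL7B. KNAT2, with an intron of 4162 bp, ranked at 50.9 and 28.6 in BCL7A brm-1, against 32.2 and 37.2 in BCL7A. KNAT2 had no peak in either BCL7B brm-1 library, against ranks of 49.0 and 21.2 in BCL7B, and none in the 4 BRM lists.

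The other gene lists were short selections and not whole families, and their counts can be read against the 4.87% of all eligible genes that held a locus, though the lists are too small for a difference from it to be read. No locus was found in the 22 MADS-box, 5 HD-ZIP III, 6 Polycomb or 3 ubiquitin, actin and EF1A genes listed that have positions meeting the rule. Genes of these families outside the lists did hold loci, among them MEA, described above, and the MADS-box gene AGL104, both singled out after their values were seen. Of 4 genes with heterochromatic introns, RPP7 held 1 locus, found in a single BRM bcl7ab library. Of 20 SWI/SNF subunit genes 1 (5%, near the share over all genes), BRM itself, held a locus, in intron 4 and in a single BRM bcl7ab library, in plants that carry a BRM transgene.

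Intronic BCL7 regions overlapped BRM regions more often than other BCL7 regions did. BRM regions with a summit in any place were counted, of which 147 were intronic, and BRM peaks were wider than BCL7 peaks. An overlap therefore does not place a BRM summit in the same intron. Of 321 intronic BCL7A regions 283 (88.2%) overlapped a BRM region, against 76.0% of other BCL7A regions, and of 315 intronic BCL7B regions 283 (89.8%), against 78.1%. Intronic BRM regions overlapped a BCL7A region at 110 of 147 (74.8%, against 80.4% of other BRM regions) and a BCL7B region at 72.1% (against 79.1%). BRM regions overlapped 42 of the 45 lost BCL7A regions (93.3%), against 88.75% of the retained ones. They overlapped 96 of the 108 lost BCL7B regions (88.9%), against 91.5% of the retained ones. Of the 45 lost BCL7A regions 33 overlapped a BCL7B region, and 27 of these were lost there too. Of the 240 retained BCL7A regions 231 overlapped a BCL7B region, 41 of them one that was lost. Of the 108 lost BCL7B regions 85 overlapped a BCL7A region, of which 29 were lost and 39 retained in BCL7A brm-1. The 164 retained BCL7B regions all overlapped a BCL7A region, 4 of them a lost one and 161 a retained one. The 2 proteins' lists come from separate plants, and these overlaps are descriptions with no test.

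The share of windows with a motif at intronic loci was set beside that at positions every 100 bp along all sequence meeting the rule, with no test. CACGTG, the G-box core bound by bZIP and bHLH factors, was in 128 of 1072 windows (11.9%), against 1.98% of the windows at those positions. TGGGCC, found in promoters of many growth genes, was in 9.42% against 2.62%, GAGAGA, a repeat bound by BPC proteins, in 26.9% against 20.6%, and AACCCTA, the telo-box, in 4.20% against 3.81%. All were searched on both strands, and CACGTG reads the same on each. The mean GC content was 35.2% at the loci and 36.3% at the positions.

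Set against other regions of the same protein, intronic regions were poorer in GAGAGA. It was in 24.0% of intronic BCL7A windows against 40.3% of others, in 26.7% against 41.8% for BCL7B and in 25.9% against 47.2% for BRM. TGGGCC was in 7.79% against 22.3% for BCL7A and 8.57% against 20.2% for BCL7B, but 6.12% against 5.68% for BRM. CACGTG was about as frequent in both, at 18.1% against 16.5% for BCL7A, 16.8% against 16.2% for BCL7B and 10.2% against 10.4% for BRM. Among intronic BCL7B regions CACGTG was in 12 of 108 that were lost (11.1%) and in 37 of 164 that were retained (22.6%), and among BCL7A regions in 7 of 45 (15.6%) and 44 of 240 (18.3%). A match to these letters is not a binding site, and the windows of lost regions come from peaks of lower rank, with medians of 30.2 against 66.8 for BCL7B and 21.4 against 54.6 for BCL7A.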

How the data were processed

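ChIP-seq peak lists of 12 libraries in 6 groups were used, and 8 further samples were not analysed here. The authors trimmed reads with fastp, mapped them to TAIR10 with Bowtie 2, kept perfectly and uniquely mapped reads and called peaks in each library with MACS2 (version 2.1.1 in the submitters' processing notes). Use of an input control is not given in the sources used here. Per peak, the authors deposited a fold enrichment (the ratio of pileup to background), -log10 values of p and q, and a MACS2 score, which was not used. Extra columns of the BCL7A and BCL7B lists, of unstated content, were not used.

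Summits were placed on the TAIR10.1 annotation (RefSeq, which also gave the printed sequences), and the fold was turned into a percentile rank within each list. Regions joined peaks of both replicates that overlapped by at least 1 bp. Python 3 with numpy and pandas was used, with exact permutation tests over libraries, and the functions were tested on simulated data. Alternatives were the TSS distance and definition, the limits on q and fold, the overlap, the replicate block and leaving out each library. Named genes, for each protein, were the 6 highest regions, the 5 highest lost and up to 4 highest new ones, the 3 largest changes in rank in each direction among regions whose groups did not overlap, the 5 highest loci found in all 12 libraries, and members of the gene lists. The members and lists were chosen with earlier results of these data known. Nuclear peaks only were analysed, and the main tests did not pair libraries by replicate number.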

Additional observations from a re-analysis of the deposited data

How the results depend on the processing

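The peak numbers, shares, rank difference, overlap at like rank, fates and rank changes were recomputed with another TSS distance (over 1000 bp), gene starts only, a -log10 q of 5 or more, a fold of 3 or more and each library left out, and the overlap at like rank and the fates also with other overlaps. Intron positions, motifs, co-occupancy, fates by rank and gene lists were computed in 1 way only. Apart from leaving out libraries, 53 values kept their direction and side of the threshold or moved by less than the spread, 35 moved, 3 lost the threshold and 2 reversed. The tests of peak numbers and shares cannot reach the threshold under any setting, so for them only a reversal could be seen. The intronic number of BRM bcl7ab over BRM reversed to 1.10 at 3-fold or more, and the share of BCL7A minus BCL7B to -0.167. At 3-fold the BCL7B number ratio was 0.314 and the lost share of intronic BCL7B regions 51.2%. The ratio and the lost share over all peaks and regions were not computed at that limit. The rank difference was -2.02 (exact p = 0.339) at 3-fold or more. The overlap at like rank was -11.5 points (exact p = 0.09375) at a -log10 q of 5 and -7.49 (exact p = 0.125) at 3-fold.

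Retained shares for BCL7A were 78.8% over 1000 bp, 65.7% at 3-fold, 68.5% with 50% overlap, 68.8% with summits within 200 bp and 68.1% with a member peak in either replicate. For BCL7B they were 48.5% at a -log10 q of 5, then 29.1%, 46.3%, 44.4% and 46.8% in the same order from 3-fold on. For BRM they were 75% over 1000 bp, 84.0% at a -log10 q of 5, then 88.6%, 66.0%, 57.8% and 70.3%. The median rank change was 2.06 over 1000 bp, 3.60 at a -log10 q of 5 and 6.02 at 3-fold for BRM, and -2.08 for BCL7A and -1.76 for BCL7B at 3-fold. The cause of these moves was not tested.

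Leaving out 1 library gave number ratios of 0.836 to 0.889 for BCL7A, 0.504 to 0.590 for BCL7B and 0.939 to 0.989 for BRM, retained shares of 68.6% to 82.2%, 47.1% to 60.6% and 70.6% to 89.8%, and rank changes of -4.48 to -3.00, -8.55 to -5.57 and -0.0340 to 0.889 in the same order. The rank difference ranged from -9.73 to -8.73 and the overlap at like rank from -14.5 to -11.5, where 6 settings leave 5 libraries and so cannot pass the threshold. Share differences were -0.525 to -0.432 for BRM minus BCL7A, -0.517 to -0.424 for BRM minus BCL7B and -0.0301 to 0.0443 for BCL7A minus BCL7B, which turned negative without BCL7A replicate 1 (-0.0301) or BCL7B replicate 1 (-0.0061). The BRM rank change turned negative without BRM replicate 2. The lost share of BRM regions was 18.4% without BRM bcl7ab replicate 2, 16.5% without BRM replicate 1 and 16.8% without BRM replicate 2, and that of BCL7A regions 21.8% without BCL7A brm-1 replicate 1.

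With the replicate number as a block the number ratios were 0.862, 0.546 and 0.964 (exact p = 0.5 each, the smallest 2 pairs allow). Deviations in rank of same-numbered libraries correlated at -4.83e-05, -0.0184 and -0.0117 over regions, so ranks gave no sign of pairing by number. An effect on depth or peak number shared by same-numbered libraries would not show in ranks and was not tested. The lists give no read totals, and the read numbers summarised in the paper's supplement were not used here. This limits how firmly a missing peak can be read.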
